A study of Mus musculus with 6 samples.

Results

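The collagen alpha chain genes were described in lung innate lymphoid cells (ILCs) sorted by KLRG1. They were taken as every gene of the deposited table whose identifier maps to a mouse symbol of the form Col, a number, a and a number, which gave 44 of 52636 genes. By type there were 9 chains of fibrillar collagens (types I, II, III, V and XI), 8 of basement membrane collagens (IV, XV and XVIII), 6 of type VI, 9 of FACIT collagens, which decorate fibrils, and 12 of other types. RNA was sequenced from 3 KLRG1-positive libraries, a sort the labels also call ILC2 and KLRG1high, and from 3 KLRG1-negative libraries. Both groups came from wild-type C57BL/6 mice with the IL-4-4get GFP reporter, which marks cells that transcribe Il4. Both were Lin-, CD90-positive lung cells, and both came from mice given 500 ng of recombinant IL-33 i.p. for 4 days and killed on day 5. IL-33 is an alarmin that activates ILC2, and KLRG1 is a lectin-like receptor of activated ILC2. The study compared the transcriptomes of these sorts. Purity was given as above 90% for both. The labels do not tie the libraries to individual mice. The spread behind each p-value is therefore that between libraries, and it may be technical. No IL-33-free group was analysed here.

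Collagens are triple helices, mostly secreted, built from 3 alpha chains. In lung, fibroblasts lay down the fibrils of types I and III, with type V setting fibril diameter, and type VI forms beaded microfilaments between the fibrils and the cell surface. Types IV, XV and XVIII belong to basement membranes under epithelium and around vessels. Fibroblasts and other stromal cells are the usual source of fibrillar collagen.

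Assigned counts were 17323004, 19042555 and 23421426 in the KLRG1-positive libraries and 17898268, 23946073 and 21723304 in the KLRG1-negative libraries 1, 2 and 3. Klrg1 measured 1485, 1786 and 1327 CPM (counts per TMM-scaled library size) in KLRG1-positive libraries, against 13.1, 193 and 73.2 CPM in KLRG1-negative libraries. It did not overlap between the groups but did not pass the test (log2 fold change 4.04 ± 0.93 SE, adjusted p = 0.0939). Summed ILC2 markers ranged from 6921 to 8048 CPM in KLRG1-positive and from 1639 to 4029 CPM in KLRG1-negative libraries, and 0 of 12 passed the test (3 were higher by an unadjusted p under 0.05, and 3 with DESeq2). Ptprc, the pan-leukocyte antigen CD45, measured 2282, 1692 and 1585 CPM in KLRG1-positive and 3256, 1429 and 1540 CPM in KLRG1-negative libraries. The sum of 15 fibroblast markers ranged from 301 to 399 CPM in KLRG1-positive and from 4689 to 10289 CPM in KLRG1-negative libraries. Of these 15 markers, 9 fell (Dcn, Lum, Mfap5, Pi16, Dpt, Clec3b, Scara5, Fbln1 and Gsn) and none was at 0 in the KLRG1-positive group. With the replicate number as a block 2 of the 15 passed, Lum and Scara5 (adjusted p = 0.0409 each). By unadjusted p 12 were lower and 1 higher, and DESeq2 called 11 lower and 1 higher. Across all tested genes 1.21% were called lower, and 0.349% with the block. By unadjusted p 11.5% of all tested genes were lower and 4.19% higher, and DESeq2 called 9.06% lower and 2.28% higher. Npnt, which encodes the matrix protein nephronectin, did not pass and measured 121, 152 and 163 CPM in KLRG1-positive and 21.7, 64.1 and 36.7 CPM in KLRG1-negative libraries (log2 fold change 1.83 ± 0.41, adjusted p = 0.0916). Npnt and Gsn, at 207, 118 and 127 CPM, made up most of the KLRG1-positive sums. Dcn, the fibroblast proteoglycan decorin, measured 6.70, 7.42 and 1.69 CPM in KLRG1-positive and 728, 1869 and 2029 CPM in KLRG1-negative libraries (adjusted p = 0.0217, and 0.068 with the replicate number as a block). Pdgfra, a receptor of lung fibroblasts, measured 3.43, 0 and 0 CPM in KLRG1-positive and 53.2, 40.9 and 115 CPM in KLRG1-negative libraries, and did not pass (adjusted p = 0.188). Mesothelial markers summed to between 7.46 and 19.4 CPM in KLRG1-positive and between 164 and 1137 CPM in KLRG1-negative libraries. None of these 7 genes passed the test, while all 7 were lower by unadjusted p and with DESeq2. T cell markers summed to between 494 and 614 CPM in KLRG1-positive and between 1580 and 6164 CPM in KLRG1-negative libraries, and B cell markers to between 125 and 358 CPM in KLRG1-positive and between 609 and 4330 CPM in KLRG1-negative libraries. Of 9 tested T cell markers 0 passed, 7 were lower by unadjusted p and 7 with DESeq2, and 3 passed with the block. Of 8 B cell markers 1 fell, Blk. By unadjusted p 7 of the 8 were lower, DESeq2 called 5 lower, and 5 passed with the block. Cd3e, a T cell receptor complex chain, measured 39.0, 8.81 and 12.5 CPM in KLRG1-positive and 798, 239 and 149 CPM in KLRG1-negative libraries (adjusted p = 0.0813, 0.0468 with the block). The part of these other cells in the collagen results was not tested. In sorted bulk RNA, fewer cells of a type and less RNA per cell cannot be told apart.

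Collagen transcripts were scarce in KLRG1-positive libraries and abundant in KLRG1-negative libraries. All 44 genes together held 0.0109, 0.0058 and 0.0112% of assigned counts in KLRG1-positive libraries (1880, 1104 and 2629 counts), against 0.417, 0.646 and 1.06% in KLRG1-negative libraries (74627, 154745 and 229766 counts). In KLRG1-positive libraries, 23, 25 and 25 of the genes had a count, and 12, 10 and 8 exceeded 1 CPM. In KLRG1-negative libraries, 35, 32 and 29 had a count, and 31, 28 and 22 exceeded 1 CPM.

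Counts were found in both groups for 29 of the 44 genes, in KLRG1-negative libraries only for 9 and in KLRG1-positive libraries only for 1, Col2a1. No library held a count of Col9a1, Col11a1, Col19a1, Col22a1 or Col25a1. Of the 9, 5 had counts in a single library each. The filter on low counts was passed by 25 members, and the other 19, of which 14 had counts, were not tested.

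At an adjusted p under 0.05 (edgeR quasi-likelihood without pairing of libraries, adjusted over 15197 tested genes), 11 collagen genes fell and 0 rose in KLRG1-positive cells. Across all tested genes 1.21% were called lower and 0.125% higher. By an unadjusted p under 0.05, 16 collagens were lower and 0 higher, against 11.5% and 4.19% of all tested genes. DESeq2 called 16 lower and 0 higher, against 9.06% and 2.28% of all tested genes. The 11 are Col1a1, Col1a2, Col3a1, Col5a1, Col4a5, Col6a1, Col6a2, Col6a5, Col6a6, Col14a1 and Col8a1. Each had a KLRG1-positive mean of at most 0.475% of its KLRG1-negative mean, and their adjusted p-values lay between 0.0102 and 0.043. Every KLRG1-positive library was below every KLRG1-negative library for 17 of the 25 tested members, against 15.2% of all tested genes, and the other 8 overlapped. No tested member was above in every library, against 9.46% of all tested genes. The median log2 fold change was -8.02 over the 25 tested collagens, also with members at 0 set to their bound, and -0.05 over all tested genes. A gene can pass the filter through 1 group alone, as Col4a5 and Col6a6 did with no KLRG1-positive count. Col5a1, Col6a5 and Col8a1 passed it with 14, 2 and 1 KLRG1-positive counts in all, while Col2a1, counted in KLRG1-positive libraries alone, did not. The calls, the members without overlap and the median thus include genes tested only because they were high in KLRG1-negative libraries. Without the filter the median was -6.07 over 39 collagens and 0.01 over all genes. The number of calls depended on the libraries used. It was 3 with the replicate number as a block, where 0.349% of all genes were lower. It was 0 without KLRG1-positive library 2, KLRG1-positive library 3 or KLRG1-negative library 3, and 1 without KLRG1-negative library 2. In those fits, 17, 16, 19 and 15 of 27, 27, 28 and 26 tested collagens were lower by unadjusted p. Over all tested genes it was 1507 of 16415, 1344 of 16218, 1653 of 15904 and 1664 of 15804.

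**Figure D1:**
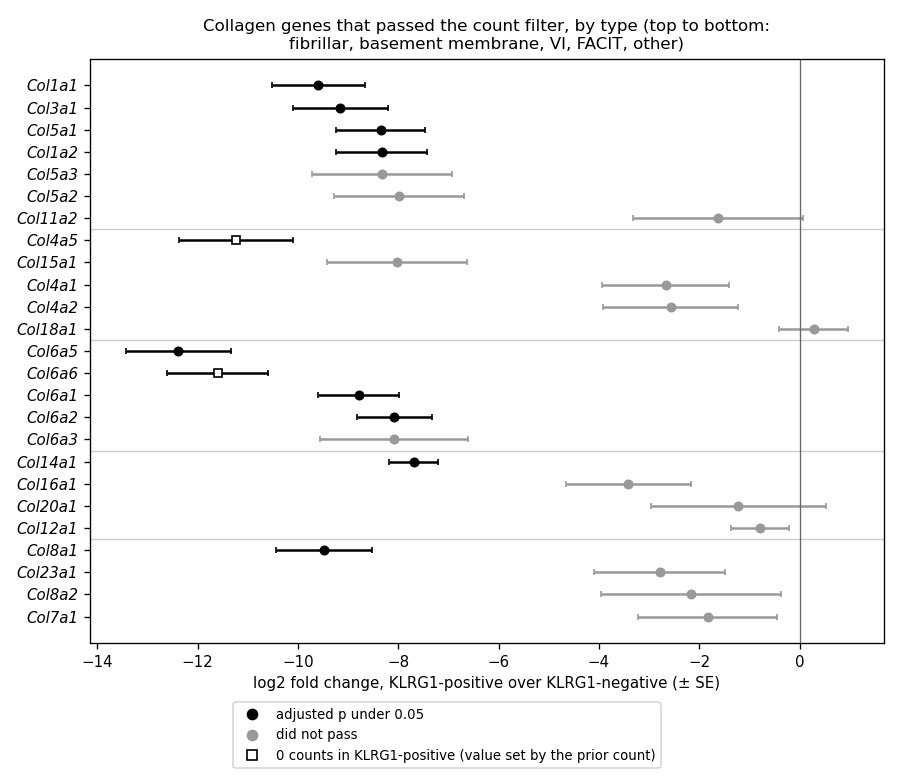
Log2 fold changes, KLRG1-positive over KLRG1-negative, of the 25 tested collagen genes by type, with bars of 1 standard error. Black points passed an adjusted p of 0.05, grey points did not, and open squares mark genes with no count in KLRG1-positive libraries, whose fitted value depends on the prior count. Col18a1 is the only tested member above 0.

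Within KLRG1-negative libraries most of the called genes had a like order. Of the 11, 10 were highest in library 3 and 9 were lowest in library 1. Col4a5 was highest in library 2, and Col14a1 and Col8a1 were lowest in library 2. The fibroblast marker sum was likewise lowest in library 1 (4689 CPM) and highest in library 3 (10289 CPM). The B cell marker sum had the same order (609, 700 and 4330 CPM in libraries 1, 2 and 3). The T cell marker sum had the reverse order (6164, 2842 and 1580 CPM). Mesothelial (164, 1137 and 1004 CPM) and smooth muscle and pericyte sums (38.1, 91.0 and 54.6 CPM) were highest in library 2. Endothelial and epithelial sums were highest in library 1. The share of all tested genes lowest in library 1 and highest in library 3 was not counted. The spread differed by gene: the highest KLRG1-negative library exceeded the lowest 4.93-fold for Col6a5, 3.56-fold for Col1a1 and 1.35-fold for Col8a1.

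**Figure D2:**
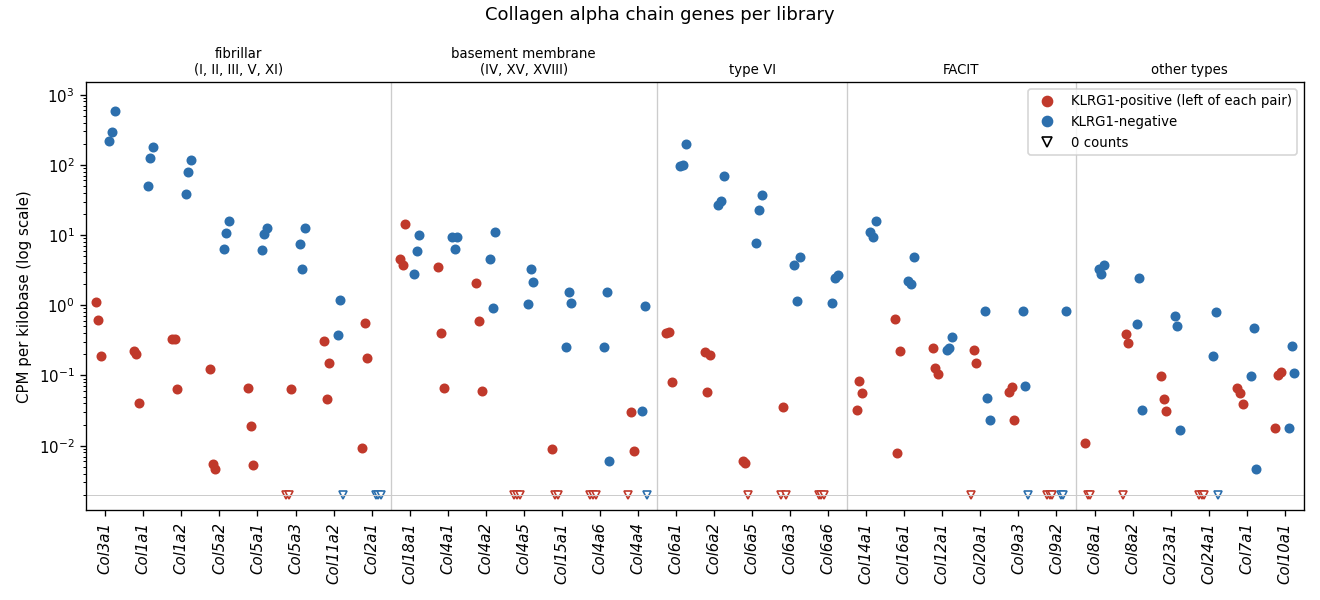
Level per length (CPM per kilobase of gene model, log axis) in each library for the 32 collagen genes that averaged at least 0.05 CPM per kilobase over the 6 libraries, with KLRG1-positive libraries in red and KLRG1-negative libraries in blue. Open triangles mark libraries with no count. The red and blue points of Col18a1 intermingle, with means of 7.56 and 6.21 CPM per kilobase.

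The sequence before the start is shown for the 5 called genes whose 150 bases upstream hold no annotated exon. Any part of these sequences in the levels was not tested. RefSeq promoters (GRCm38.p6) were available for 35 of the 44 genes, in 38 windows. Both strands were searched for the letters CCAAT of the CCAAT box, for TATAAA of the TATA box and for GGGCGG, the core letters of a GC box. Capitals mark the matches, and where GGGCGG lies on the other strand the printed letters are its reverse complement. Matches of different motifs do not overlap in these windows. All windows run 5′ to 3′ towards the gene. Col3a1, the type III chain, is at chr1:45311388-45311537 (+). Col5a1, a type V chain, is at chr2:27886275-27886424 (+). Col6a2 and Col6a5, type VI chains, are at chr10:76623631-76623780 (-) and chr9:105960644-105960793 (-). Col8a1, a short-chain network collagen, is at chr16:57754738-57754887 (-).
Col3a1: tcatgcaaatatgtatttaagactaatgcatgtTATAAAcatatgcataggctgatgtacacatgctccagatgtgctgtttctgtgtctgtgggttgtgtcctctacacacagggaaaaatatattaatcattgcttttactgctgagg
Col5a1: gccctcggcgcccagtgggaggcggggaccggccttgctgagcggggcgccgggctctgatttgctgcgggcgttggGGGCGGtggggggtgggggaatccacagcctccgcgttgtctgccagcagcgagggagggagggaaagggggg
Col6a2: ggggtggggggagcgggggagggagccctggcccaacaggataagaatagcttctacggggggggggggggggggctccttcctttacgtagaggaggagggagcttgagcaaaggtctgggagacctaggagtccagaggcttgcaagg
Col6a5: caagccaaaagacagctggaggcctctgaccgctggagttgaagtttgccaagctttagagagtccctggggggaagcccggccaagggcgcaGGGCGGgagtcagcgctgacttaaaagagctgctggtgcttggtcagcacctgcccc
Col8a1: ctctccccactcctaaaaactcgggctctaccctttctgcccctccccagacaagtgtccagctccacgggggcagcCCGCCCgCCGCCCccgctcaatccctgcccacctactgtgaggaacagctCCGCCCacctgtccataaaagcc

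None of the 3 motifs was found in all 5 windows. Col3a1 had a TATAAA and no GC box letters, Col5a1 and Col6a5 had 1 GGGCGG each, Col8a1 had the GC box letters only on the other strand, and the printed Col6a2 window had no match. A second Col6a2 window, before the start at 76623404, held 3 GGGCGG matches on the other strand and was not printed because it lies in an annotated exon. Over the 38 collagen windows, GGGCGG on either strand was found in 19 (50.0%), CCAAT in 8 (21.1%) and TATAAA in 4 (10.5%). Over all 32851 RefSeq windows of the same length the shares were 28.6% for GGGCGG, 24.5% for CCAAT and 7.57% for TATAAA. Among 10 windows of 9 called members, 6 held GGGCGG, 1 held CCAAT and 1 held TATAAA. A match is a run of letters and not a measured binding site.

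Of the fibrillar collagens, 7 of 9 genes were tested and 4 fell. Summed over the 9 genes, the level was 20.6, 15.3 and 5.55 CPM in KLRG1-positive libraries and 3117, 4874 and 8742 CPM in KLRG1-negative libraries, so the groups lay far apart. Col3a1, the single chain of type III collagen of distensible tissues, is at chr1:45311538-45349706 (+). It measured 11.1, 5.98 and 1.86 CPM in KLRG1-positive libraries and 2146, 2849 and 5763 CPM in KLRG1-negative libraries. It alone held 51.7, 46.7 and 52.2% of collagen counts in KLRG1-negative libraries, against 10.5, 10.1 and 1.6% in KLRG1-positive libraries. The means were 6.31 ± 4.62 CPM in KLRG1-positive libraries and 3586 ± 1918 CPM in KLRG1-negative libraries (SD, n = 3 each), a log2 fold change of -9.15 ± 0.94 (SE, adjusted p = 0.0217, 0.0686 with the block). Without KLRG1-positive library 1 the log2 fold change of Col3a1 was -9.83.

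Col1a1 and Col1a2 encode the chains of type I collagen, the main fibril of connective tissue. Col1a1, at chr11:94936224-94953042 (+), measured 1.46, 1.34 and 0.266 CPM in KLRG1-positive libraries and 330.0, 831 and 1174 CPM in KLRG1-negative libraries. Its means were 1.02 ± 0.657 CPM in KLRG1-positive libraries and 778 ± 424 CPM in KLRG1-negative libraries (SD, n = 3 each), with a log2 fold change of -9.59 ± 0.93 (adjusted p = 0.0217, 0.068 with the block). Col1a2, at chr6:4504814-4541544 (+), measured 4.11, 4.17 and 0.799 CPM in KLRG1-positive libraries and 475, 972 and 1458 CPM in KLRG1-negative libraries. Neither type I chain overlapped between the groups, and both were lowest in KLRG1-positive library 3. The Col1a2 log2 fold change was -8.33 ± 0.90 (adjusted p = 0.0231, 0.0704 with the block). Without KLRG1-positive library 3 the log2 fold changes were -8.97 for Col1a1 and -7.73 for Col1a2.

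Type V collagen co-assembles with type I and limits fibril width. Col5a1, at chr2:27886425-28039514 (+), measured 0.563, 0.16 and 0.0444 CPM in KLRG1-positive libraries and 52.7, 86.8 and 107 CPM in KLRG1-negative libraries. Its log2 fold change was -8.35 ± 0.88 (adjusted p = 0.0227, 0.0682 with the block), -9.61 without KLRG1-positive library 1 and -7.68 without KLRG1-positive library 3. Its partner Col5a2 measured 1.18, 0.0534 and 0.0444 CPM in KLRG1-positive libraries and 60.1, 104 and 153 CPM in KLRG1-negative libraries. Col5a2 did not overlap between the groups and just missed the threshold (log2 fold change -7.98 ± 1.29, adjusted p = 0.0512, 0.103 with the block). Col5a3, the remaining type V chain, had no count in KLRG1-positive libraries 1 and 2 and 0.444 CPM in library 3, against 50.7, 22.4 and 85.4 CPM in KLRG1-negative libraries (adjusted p = 0.0542). Without KLRG1-positive library 1, Col5a2 passed (log2 fold change -10.91, adjusted p = 0.0203). Without KLRG1-positive library 3, Col5a3 had no KLRG1-positive count left and did not pass (adjusted p = 0.116). DESeq2 called both (adjusted p = 1.15e-11 for Col5a2 and 4.33e-11 for Col5a3).

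Neither detected cartilage fibril chain was called. Col11a2, a chain of the type XI fibrils of cartilage, measured 2.08, 0.320 and 1.02 CPM in KLRG1-positive libraries and 2.56, 8.08 and 0 CPM in KLRG1-negative libraries. These values overlap, and the gene did not pass (log2 fold change -1.63 ± 1.69, adjusted p = 0.753). Col2a1, the type II chain of cartilage, at chr15:97975602-98004695, was the only member with counts in KLRG1-positive libraries alone. It had 1, 62 and 24 counts there (0.0563, 3.31 and 1.07 CPM) and 0 in every KLRG1-negative library. Most of these counts came from 1 library, and the gene did not pass the filter, so it was not tested. The cartilage proteoglycan Acan had no count in either group, and the 7 chondrocyte markers summed to between 0.788 and 2.51 CPM in KLRG1-positive and between 0.625 and 7.81 CPM in KLRG1-negative libraries.

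Of the basement membrane collagens, 5 of 8 genes were tested and 1 fell. Their summed level was 71.9, 34.1 and 102 CPM in KLRG1-positive libraries and 132, 149.8 and 235 CPM in KLRG1-negative libraries. These sums lay closer together than those of the fibrillar chains, and Col18a1 alone made 31.5, 26.3 and 101 CPM of the KLRG1-positive sums. Col18a1, at chr10:77052178-77166548 (-), encodes the type XVIII chain, a proteoglycan core protein whose C-terminal fragment is endostatin. It measured 31.5, 26.3 and 101 CPM in KLRG1-positive libraries (560, 492 and 2285 counts) and 19.6, 41.4 and 69.9 CPM in KLRG1-negative libraries (352, 1049 and 1454 counts). In both groups library 3 was the highest, and the groups overlapped. The log2 fold change of Col18a1 was 0.28 ± 0.68 (adjusted p = 0.913, 0.818 with the block and 0.924 with DESeq2). Its direction turned without KLRG1-positive library 3 (-0.45) and without KLRG1-negative library 1 (-0.06).

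Col18a1 held 29.8, 44.6 and 86.9% of all collagen counts in KLRG1-positive libraries, against 0.472, 0.678 and 0.633% in KLRG1-negative libraries. Without it, collagens made up 0.00762, 0.00321 and 0.00147% of assigned counts in KLRG1-positive libraries, 1320, 612 and 344 counts. Against 100 counts of the fibroblast gene Dcn there were 471, 354 and 6013 counts of Col18a1 in KLRG1-positive libraries and 2.69, 2.21 and 3.44 in KLRG1-negative libraries. The Dcn counts of the KLRG1-positive libraries were few, 296 in all 3, so these proportions are imprecise.

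Type IV collagen forms the network of all basement membranes, with Col4a1 and Col4a2 as its widespread chains. Col4a1 measured 26.1, 3.04 and 0.488 CPM in KLRG1-positive libraries and 71.1, 47.2 and 70.4 CPM in KLRG1-negative libraries. The groups did not overlap, but the KLRG1-positive values spread widely around 9.89 ± 14.1 CPM (SD, n = 3), against 62.9 ± 13.6 CPM in KLRG1-negative libraries. Its log2 fold change was -2.67 ± 1.27 (adjusted p = 0.391), and -5.15 without KLRG1-positive library 1 (adjusted p = 0.0763). Col4a2 measured 14.0, 4.01 and 0.4 CPM in KLRG1-positive libraries and 30.1, 5.99 and 73.2 CPM in KLRG1-negative libraries. The groups overlapped for Col4a2, and its log2 fold change was -2.57 ± 1.35 (adjusted p = 0.447), and -4.04 without KLRG1-positive library 1 (adjusted p = 0.312).

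KLRG1-positive library 1, the highest of its group for Col4a1 and Col4a2, was also its highest for 10 of 11 endothelial and 9 of 12 epithelial markers. That library was also the highest for 8 of 10 smooth muscle and pericyte, 10 of 15 fibroblast and 7 of 10 T cell markers. The same held for 4 of 7 mesothelial and 4 of 7 Schwann cell markers. For ILC2 it was 2 of 12, for macrophages and dendritic cells 2 of 9, for B cells 0 of 8 and for chondrocytes 0 of 7. The share of all genes highest in that library was not counted. Some of these markers were near 0 there, as Erg, Krt8 and Foxj1 at 0.394, 0.394 and 0.450 CPM. Pecam1, an endothelial adhesion molecule also found on leukocytes, measured 146, 143 and 95.4 CPM in KLRG1-positive and 247, 97.5 and 169 CPM in KLRG1-negative libraries (adjusted p = 0.697). Epcam, an epithelial adhesion molecule, was lowest in that library, at 0.338, 8.12 and 9.01 CPM in KLRG1-positive and 3.84, 5.05 and 7.78 CPM in KLRG1-negative libraries (adjusted p = 0.988). The endothelial receptor Kdr measured 39.4, 5.82 and 0.0444 CPM in KLRG1-positive and 79.7, 6.82 and 22.1 CPM in KLRG1-negative libraries. The alveolar surfactant gene Sftpc measured 330, 0.374 and 0.4 CPM in KLRG1-positive and 366, 2.33 and 1.15 CPM in KLRG1-negative libraries. Summed over 11 endothelial markers, the level was 315, 168 and 102 CPM in KLRG1-positive and 514, 159.9 and 246 CPM in KLRG1-negative libraries, and 0 passed. Summed over 12 epithelial markers it was 552, 15.97 and 15.8 CPM in KLRG1-positive and 620.4, 117 and 114 CPM in KLRG1-negative libraries, and 0 passed with edgeR (0 endothelial and 2 epithelial markers were lower by unadjusted p, and 0 and 2 with DESeq2). Across all tested genes 11.5% were lower by unadjusted p and 9.06% with DESeq2. The part of these cell types in the type IV values was not tested.

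The remaining type IV chains belong to specialised basement membranes, the alveolar and glomerular ones among them. Col4a5, at chrX:141475385-141689234 (+), had no count in any KLRG1-positive library and 7.06, 22.4 and 14.2 CPM in KLRG1-negative libraries. Set against a floor of 3 counts over the KLRG1-positive group (0.0508 CPM), it was at least 304-fold lower (adjusted p = 0.043, 0.113 with the block). Its head-to-head neighbour Col4a6, 1308 bases away, was also at 0 in KLRG1-positive libraries and had 2.06, 12.5 and 0.0481 CPM in KLRG1-negative libraries, at least 109-fold lower, but did not pass the filter. Col4a3 and Col4a4 had 12 and 8 counts in KLRG1-positive libraries and were not tested. Of the Col4a4 counts in KLRG1-negative libraries, 261 of 267 came from library 2. Col15a1, the type XV chain of vessel and muscle basement membranes, had 1 count in KLRG1-positive libraries and 1.61, 9.78 and 6.87 CPM in KLRG1-negative libraries. It was lower by a ratio of 386 (95% counting interval 69.0 to 15296) and missed the threshold (adjusted p = 0.0574), while DESeq2 called it (adjusted p = 3.125e-06).

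**Figure D3:**
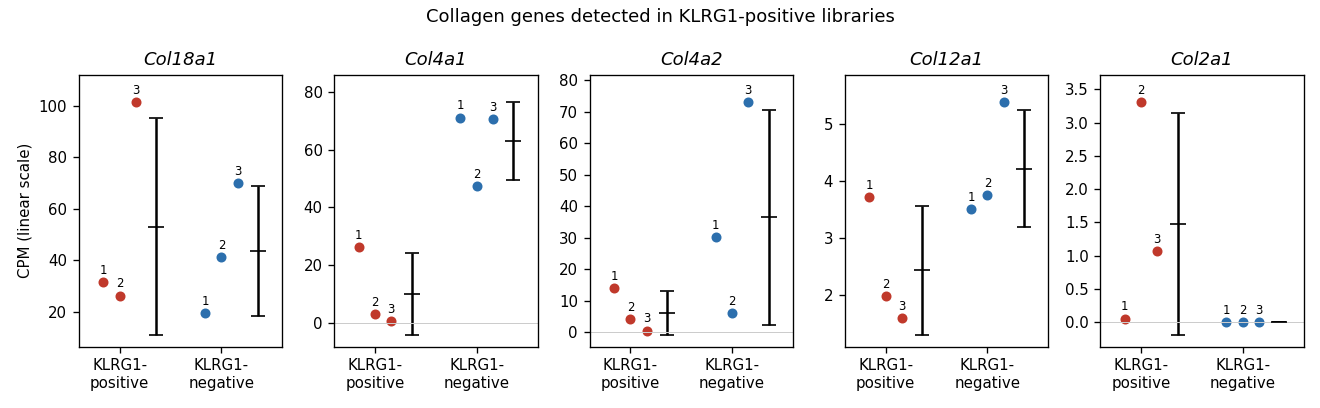
CPM in each library (points, numbered by replicate) with the mean and SD (bars, n = 3) for Col18a1, Col4a1, Col4a2, Col12a1 and Col2a1, KLRG1-positive left and KLRG1-negative right of each pair. Col18a1, Col4a2 and Col12a1 overlap between the groups, and Col2a1 is at 0 in KLRG1-negative libraries.

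Of the type VI chains, 5 of 6 were tested and 4 fell, and all 5 had no overlap between the groups. Their sum was 3.60, 2.78 and 2.00 CPM in KLRG1-positive libraries and 769.8, 952 and 1891 CPM in KLRG1-negative libraries. Type VI collagen needs Col6a1, Col6a2 and a further chain, which can be Col6a3 or one of its homologs Col6a4, Col6a5 and Col6a6. Col6a1, at chr10:76708792-76726168 (-), measured 1.75, 1.82 and 0.355 CPM in KLRG1-positive libraries and 417, 441 and 869 CPM in KLRG1-negative libraries. Its log2 fold change was -8.79 ± 0.80 (adjusted p = 0.0196, 0.0657 with the block), and -8.19 without KLRG1-positive library 3. Col6a2, at chr10:76595762-76623630 (-), measured 1.80, 0.481 and 1.64 CPM in KLRG1-positive libraries and 227, 257 and 584 CPM in KLRG1-negative libraries. Its log2 fold change was -8.08 ± 0.75 (adjusted p = 0.0196), and it also passed with the block (adjusted p = 0.0425).

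These further chains differed in abundance. Col6a5, at chr9:105856078-105960643 (-), was the most abundant of them in KLRG1-negative libraries, with 71.6, 218 and 353 CPM, against 0.0563, 0.0534 and 0 CPM (2 counts) in KLRG1-positive libraries. It had the most negative fitted log2 fold change of the members, and the ratio of group sums put it 6512-fold lower (95% counting interval 1802 to 53776), with an adjusted p of 0.0174 (0.0409 with the block). Col6a6, 27917 bases from Col6a5 on the same strand at chr9:105687809-105828160 (-), had no count in KLRG1-positive libraries and 9.85, 22.3 and 24.4 CPM in KLRG1-negative libraries. It was at least 384-fold lower (adjusted p = 0.0379, 0.102 with the block). Col6a3, the widespread one of them, measured 0, 0.427 and 0 CPM in KLRG1-positive libraries and 44.2, 14.0 and 59.2 CPM in KLRG1-negative libraries. It did not overlap between the groups and did not pass (log2 fold change -8.08 ± 1.48, adjusted p = 0.0617), while DESeq2 called it (adjusted p = 5.17e-09). Without KLRG1-positive library 2 it had no KLRG1-positive count left and did not pass (adjusted p = 0.147). Col6a4 had 19 counts in KLRG1-negative library 3 and none elsewhere.

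Of the FACIT collagens, 4 of 9 were tested and 1 fell. Their sum was 8.45, 3.85 and 4.22 CPM in KLRG1-positive libraries and 103, 83.9 and 153 CPM in KLRG1-negative libraries. Col14a1, which coats type I fibrils, is at chr15:55307750-55520803 (+) and had the lowest adjusted p of the members. It measured 0.225, 0.587 and 0.4 CPM in KLRG1-positive libraries and 77.7, 65.9 and 112 CPM in KLRG1-negative libraries. The means were 0.404 ± 0.181 CPM in KLRG1-positive libraries and 85.1 ± 23.7 CPM in KLRG1-negative libraries (SD, n = 3 each), a log2 fold change of -7.69 ± 0.49 (adjusted p = 0.0102, 0.0421 with the block).

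The other 3 tested FACIT chains did not pass. Col12a1, the close relative of Col14a1 in tendon and other dense tissue, measured 3.72, 1.98 and 1.6 CPM in KLRG1-positive libraries and 3.50, 3.75 and 5.38 CPM in KLRG1-negative libraries. The groups overlapped, and the log2 fold change of Col12a1 was -0.79 ± 0.58 (adjusted p = 0.618). Col16a1, the type XVI chain, measured 4.28, 0.0534 and 1.51 CPM in KLRG1-positive libraries and 15.1, 13.8 and 33.1 CPM in KLRG1-negative libraries. Col16a1 did not overlap between the groups and did not pass (log2 fold change -3.41 ± 1.24, adjusted p = 0.256), while DESeq2 called it (adjusted p = 0.0268). Without KLRG1-positive library 1 its log2 fold change was -4.68, and without KLRG1-positive library 2 it was -2.82. Col20a1 overlapped, with 0, 0.961 and 0.621 CPM in KLRG1-positive and 3.45, 0.197 and 0.0961 CPM in KLRG1-negative libraries. The cartilage chain Col9a2 had 53 counts in KLRG1-negative library 3 and none elsewhere, while Col9a3 had 11 counts over the KLRG1-positive libraries and 57 of its 64 KLRG1-negative counts in library 1.

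Of the 12 chains of other types, 4 were tested and 1 fell. Their sum was 1.35, 2.94 and 2.53 CPM in KLRG1-positive libraries and 29.4, 41.9 and 21.3 CPM in KLRG1-negative libraries. Col8a1, a network collagen of vessel walls, at chr16:57624258-57754737 (-), had 1 count in KLRG1-positive libraries and 16.9, 14.2 and 19.1 CPM in KLRG1-negative libraries. It was lower by a ratio of 977 (95% counting interval 175 to 38622), with an adjusted p of 0.0217 (0.0657 with the block). Without KLRG1-positive library 1, which held that count, the adjusted p was 0.0287. Its partner Col8a2 measured 0, 1.76 and 1.29 CPM in KLRG1-positive and 2.39, 11.1 and 0.144 CPM in KLRG1-negative libraries. Col8a2 overlapped and did not pass (log2 fold change -2.16, adjusted p = 0.672).

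Col7a1, the anchoring fibril chain of epithelial basement membranes, measured 0.676, 0.587 and 0.4 CPM in KLRG1-positive and 1.00, 4.89 and 0.0481 CPM in KLRG1-negative libraries. The transmembrane chain Col23a1 measured 0.563, 0.267 and 0.178 CPM in KLRG1-positive and 4.01, 2.92 and 0.0961 CPM in KLRG1-negative libraries. Both overlapped, and neither passed (adjusted p = 0.63 for Col7a1 and 0.385 for Col23a1). The transmembrane chains Col13a1 and Col17a1, the second of hemidesmosomes, had 18 and 22 counts in KLRG1-negative library 1 and none elsewhere. Col24a1, a fibrillar-like chain, had no count in KLRG1-positive libraries and 1.45, 6.11 and 0 CPM in KLRG1-negative libraries, at least 55.5-fold lower. Col10a1, the hypertrophic cartilage chain, measured 0.0563, 0.320 and 0.355 CPM in KLRG1-positive and 0.0556, 0.828 and 0.336 CPM in KLRG1-negative libraries, a handful of counts in each library. Col26a1, Col27a1 and Col28a1 had 0, 4 and 3 counts in KLRG1-positive and 33, 51 and 19 counts in KLRG1-negative libraries.

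Set per length, the makeup of the collagen pool differed between the groups. Basement membrane chains held 71.8, 58.7 and 87.7% of the summed collagen level per kilobase in KLRG1-positive libraries, against 3.69, 2.86 and 2.59% in KLRG1-negative libraries. In KLRG1-positive libraries Col18a1 alone made 4.49, 3.74 and 14.4 of the 10.1, 4.83 and 14.6 CPM per kilobase of these chains. Fibrillar chains held 15.5, 21.5 and 4.19% in KLRG1-positive libraries and 65.3, 72.4 and 71.2% in KLRG1-negative libraries. Type VI chains held 4.403, 6.24 and 1.67% in KLRG1-positive libraries and 26.9, 22.0 and 24.2% in KLRG1-negative libraries. FACIT chains held 6.87, 6.32 and 3.35% in KLRG1-positive and 3.03, 1.64 and 1.70% in KLRG1-negative libraries. Chains of other types held 1.37, 7.27 and 3.07% in KLRG1-positive and 1.10, 1.04 and 0.316% in KLRG1-negative libraries. For all 5 types the groups did not overlap, but shares of a common total depend on each other. With 3 libraries against 3, the smallest p of an exact two-sided permutation test is 0.1, so these shares carry no test.

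**Figure D4:**
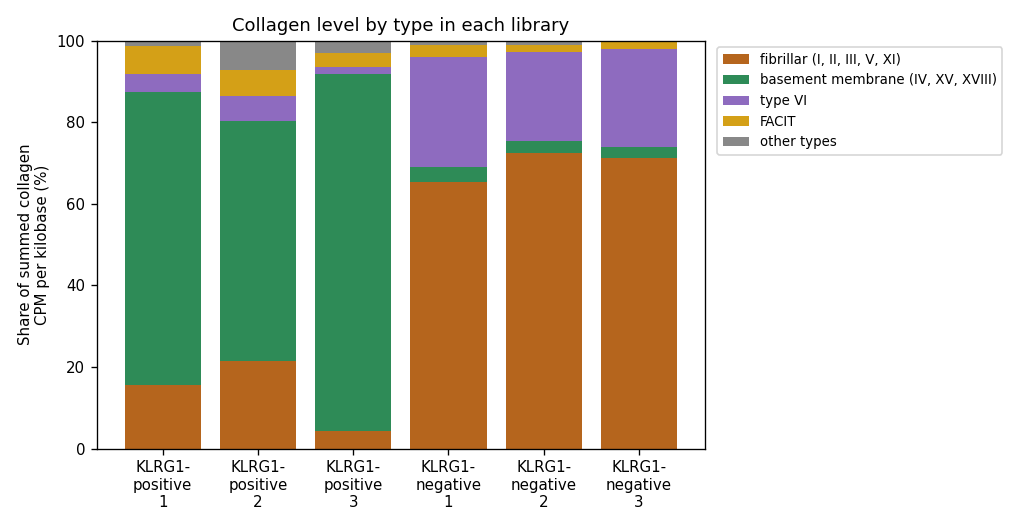
Share of the summed collagen level (CPM per kilobase) held by each collagen type in each library, in percent, with the KLRG1-positive libraries left of the KLRG1-negative libraries. Basement membrane chains, of which Col18a1 is the most abundant, hold 58.7 to 87.7% in KLRG1-positive libraries. Fibrillar chains hold 65.3 to 72.4% in KLRG1-negative libraries.

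By level per length, the order of the chains differed between the groups. In KLRG1-negative libraries Col3a1 led with 365 ± 195 CPM per kilobase, followed by Col6a1 (131 ± 58.0), Col1a1 (119 ± 64.7) and Col1a2 (77.9 ± 39.6, SD, n = 3). The gaps from Col6a1 to Col1a1 and from Col1a1 to Col1a2 were smaller than the SD of Col1a1. In KLRG1-positive libraries Col18a1 led with 7.56 ± 5.98 CPM per kilobase, followed by Col4a1 (1.32 ± 1.89), Col4a2 (0.925 ± 1.06) and Col3a1 (0.643 ± 0.471), and these 3 followers lay within 1 SD of Col4a1 of each other.

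Chains of the same molecule, and Col3a1 against Col1a1, were set against each other per length, as values without a test. The ratio of Col1a1 to Col1a2 was 0.674, 0.607 and 0.631 in KLRG1-positive libraries and 1.32, 1.62 and 1.52 in KLRG1-negative libraries. Summed over the group it was 0.639 in KLRG1-positive (57 and 169 counts, 95% counting interval 0.464 to 0.867) and 1.53 in KLRG1-negative libraries (1.52 to 1.55). Taken singly, KLRG1-positive libraries 1, 2 and 3 had intervals of 0.414 to 1.07, 0.370 to 0.963 and 0.205 to 1.66. That of library 3, from 6 and 18 counts, covers every KLRG1-negative ratio. The values of the groups did not overlap for this ratio. The gene models it is scaled by, 6563 bases for Col1a1 and 12426 for Col1a2, are the same in all libraries. Col3a1 to Col1a1 overlapped, at 5.07, 3.00 and 4.68 in KLRG1-positive and 4.35, 2.29 and 3.28 in KLRG1-negative libraries. Col6a1 to Col6a2 ran from 0.411 to 7.18 in KLRG1-positive libraries, where each library held 8 to 37 counts of each chain, and from 2.83 to 3.50 in KLRG1-negative libraries. Col4a1 to Col4a2 was 1.66, 0.674 and 1.08 in KLRG1-positive and 2.09, 6.98 and 0.854 in KLRG1-negative libraries. Among the further chains of type VI, Col6a5 exceeded Col6a3 2.06-, 19.8- and 7.57-fold and Col6a6 7.08-, 9.50- and 14.1-fold in KLRG1-negative libraries.

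**Figure D5:**
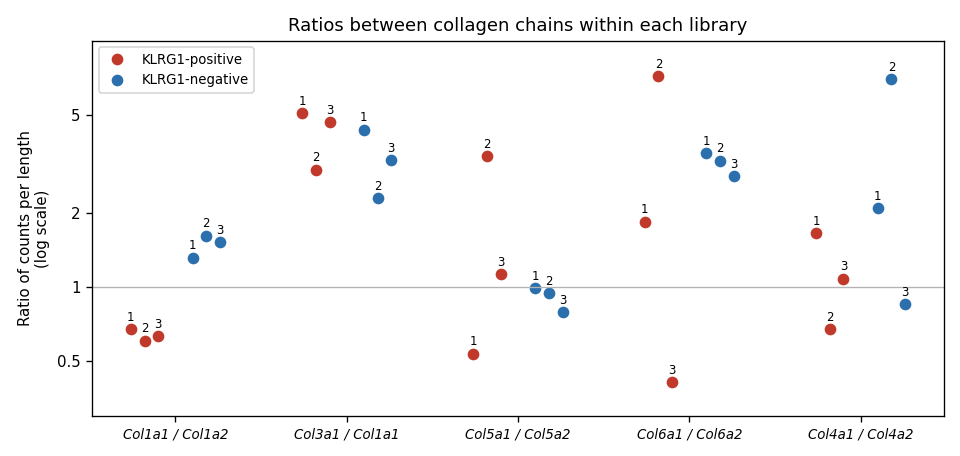
Ratio of levels per length between paired chains in each library (log axis), KLRG1-positive left in red and KLRG1-negative right in blue. Col1a1 to Col1a2 lies between 0.607 and 0.674 in KLRG1-positive and between 1.32 and 1.62 in KLRG1-negative libraries, and the other 4 ratios overlap between the groups.

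Relative to Dcn, the groups overlapped for most of the called chains examined and separated for Col1a1 and Col6a5. Per 100 Dcn counts there were 61.3, 56.1 and 47.4 counts of Col1a2 in KLRG1-positive libraries and 65.2, 52.0 and 71.9 in KLRG1-negative libraries, which overlap. For Col1a1 there were 21.8, 17.99 and 15.8 in KLRG1-positive and 45.3, 44.4 and 57.9 in KLRG1-negative libraries, which do not. For Col6a5 there were 0.840, 0.719 and 0 in KLRG1-positive and 9.84, 11.6 and 17.4 in KLRG1-negative libraries. The KLRG1-positive values of Col6a5 rest on 1, 1 and 0 counts. For Col3a1 there were 166, 80.6 and 111 in KLRG1-positive and 295, 152 and 284 in KLRG1-negative libraries, which overlap. Col5a1, Col6a1, Col6a2, Col14a1 and Col8a1 also overlapped. Of the chains not called, Col4a1, Col4a2 and Col18a1 were higher relative to Dcn in every KLRG1-positive library.

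Several members are neighbours in the genome. Col4a1 and Col4a2 lie head to head on chromosome 8 with 22 overlapping bases, Col4a3 and Col4a4 head to head on chromosome 1 with 71 bases between them, and Col3a1 and Col5a2 tail to tail on chromosome 1 with 24614 bases between them. Col6a1 and Col6a2 follow each other on chromosome 10, 85161 bases apart. Reads were counted without strand and ambiguous reads were left out, so bases shared with another gene give no count. Exons of 13 members overlap those of another gene, over at most 6.07% of the length (Col9a3).

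Genes that fold and modify procollagen in the endoplasmic reticulum were tested in 22 of 23 cases, and 2 fell (by unadjusted p 8 were lower and 1 higher, DESeq2 called 7 lower, and 0 passed with the block). The prolyl isomerase Fkbp10 measured 0.619, 0.0534 and 0.311 CPM in KLRG1-positive libraries and 21.5, 60.2 and 66.9 CPM in KLRG1-negative libraries (adjusted p = 0.0366, 0.0897 with the block). Its relative Fkbp14 had 2 counts in KLRG1-positive libraries and 5.90, 23.6 and 45.6 CPM in KLRG1-negative libraries (adjusted p = 0.0374, 0.068 with the block). The median log2 fold change of the list was -0.13. Across all tested genes 1.21% were called lower, 11.5% were lower and 4.19% higher by unadjusted p, and DESeq2 called 9.06% lower.

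Genes that process, crosslink and arrange collagen outside the cell had the most calls of the 5 pathway lists. Of 18 tested of 19, 5 fell (Lum, Adamts2, Dcn, Pcolce and Tnxb), 15 were lower by unadjusted p, 15 with DESeq2 and 1 with the block, and the median log2 fold change was -6.32. Lum, the fibril-spacing proteoglycan lumican, had 1 count in KLRG1-positive libraries and 118, 77.3 and 234 CPM in KLRG1-negative libraries (adjusted p = 0.0124, 0.0409 with the block). Adamts2, the procollagen N-proteinase, had 2 counts in KLRG1-positive libraries and 4.12, 52.4 and 27.2 CPM in KLRG1-negative libraries (adjusted p = 0.0448, 0.0685 with the block). Dcn and Lum also stand in the fibroblast marker list. The shares over all tested genes were 1.21% called lower, 11.5% by unadjusted p, 9.06% with DESeq2 and 0.349% with the block.

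Of 14 tested of 16 basement membrane partners, 1 fell, Nid1, which links laminin to type IV collagen. Nid1 measured 9.40, 11.7 and 14.5 CPM in KLRG1-positive libraries and 192, 113 and 244 CPM in KLRG1-negative libraries, a log2 fold change of -3.94 ± 0.37 (adjusted p = 0.0196, 0.0494 with the block). By unadjusted p 11 partners were lower, and DESeq2 called 9, against 11.5% and 9.06% of all tested genes. Of 11 tested of 13 collagen-degrading proteases and their inhibitors, 1 fell, the membrane protease Mmp14. It measured 0.619, 1.44 and 2.26 CPM in KLRG1-positive libraries and 35.4, 82.6 and 78.9 CPM in KLRG1-negative libraries (log2 fold change -5.50 ± 0.65, adjusted p = 0.0295, 0.0409 with the block). In this list 7 members were lower by unadjusted p and 6 with DESeq2. With the block 1 of the partners and 2 of the proteases and inhibitors passed, Mmp3 being the other protease (adjusted p = 0.0422). Across all tested genes 1.21% were called lower, and 0.349% with the block.

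Of 10 tested of 12 collagen receptors, 0 passed with edgeR (by unadjusted p 5 were lower and 1 higher, and DESeq2 called 5 lower). The most abundant was Itgb1, the beta chain of the collagen-binding integrins, at 566, 1705 and 1351 CPM in KLRG1-positive libraries and 1255, 1227 and 1297 CPM in KLRG1-negative libraries (log2 fold change -0.06 ± 0.39, adjusted p = 0.974). Cd36, a scavenger receptor that also binds collagen, measured 90.1, 9.72 and 7.32 CPM in KLRG1-positive and 165, 17.4 and 164 CPM in KLRG1-negative libraries (adjusted p = 0.611). Both overlapped between the groups. Over all tested genes 11.5% were lower and 4.19% higher by unadjusted p, and DESeq2 called 9.06% lower.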

How the data were processed

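RNA from 3 KLRG1-positive and 3 KLRG1-negative libraries was made into cDNA and amplified with SMARTer Ultra Low Input v4 and tagged with Nextera XT, which marks no strand, per the labels' protocols. The authors deposited unnormalised counts per gene from featureCounts v1.5.2 on Ensembl release 90 models of GRCm38, per the file headers. Reads rather than pairs were counted, without strand, and multi-mapping and ambiguous reads were left out. Tools in the submitters' processing notes are STAR 2.4.1d, bcl2fastq and Subread 1.5.2. Gene length, another deposited column, was used for levels per kilobase. Symbols came from GENCODE release M21.

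Assigned counts per library were 17323004 to 23946073. edgeR 4.0.16 (R 4.3.3) was run on the deposited counts with TMM factors, filterByExpr by group and the robust quasi-likelihood F test, two-sided, on 15197 genes, with Benjamini-Hochberg adjustment over all of them and a threshold of 0.05. SE is that of the log2 fold change, from the F statistic. CPM are counts over the TMM-scaled library. The test was checked on simulated counts with changes only in well-counted genes, no pairing and less spread between libraries than in these data. That check does not cover members near 0 counts. A gene at 0 in a group was set to a floor of 3 counts over the group for a bound. Counting intervals (exact, from the binomial split of counts between groups, 95%) and the floors account for counting error alone, amplified reads not being independent molecules.

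Alternatives were DESeq2 1.42.0 (Wald), its size factors, library size only, no filter, no length correction, each library left out, each number left out, and the replicate number as a block. Same-numbered libraries deviated together from their group means (correlations across genes 0.456, 0.444 and 0.213, on log2 CPM with a pseudocount of 1). The block fit therefore takes the numbers to pair the libraries, on the data alone. The main fit held the group alone, so its p-values and SE ignore any such pairing.

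The members, gene lists and tests were chosen with earlier results of these data known. Named were members past the threshold, the 2 most abundant of each type, those averaging 1 CPM in KLRG1-positive libraries, the extremes of fold change, 7 fixed genes, and up to 2 lower genes per list or the 2 most abundant. Others were chosen after their values were seen. RefSeq tables gave the promoter windows.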

Additional observations from a re-analysis of the deposited data

How the results depend on the processing

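The number of collagen genes called lower was 11 with the settings reported, 11 with DESeq2 size factors or library size only, 14 without the filter and 16 with DESeq2. With the replicate block it was 3, all among the 11, and without both libraries numbered 1, 2 and 3 it was 9, 0 and 0. Without 1 library it ran from 0 to 11. The genes of the 5 pathway lists that passed numbered 9, and 19 without the filter, 42 with DESeq2, 4 with the block, 18, 0 and 0 without both numbered 1, 2 and 3, and 0 to 17 without 1 library. All tested genes called lower numbered 184, and 282 without the filter, 1377 with DESeq2, 53 with the block, 168, 0 and 0 without both numbered 1, 2 and 3, and 0 to 159 without 1 library. Genes called higher numbered 19, and 37 without the filter, 346 with DESeq2, 0 with the block, 3, 0 and 0 without both numbered 1, 2 and 3, and 0 to 5 without 1 library. The causes were not tested. No collagen was called higher in any of these settings. Of 349 collagen fold changes under alternatives, 252 kept direction and side of the threshold, 79 lost the threshold, 10 gained it and 8 turned, in 4 genes that did not pass. Col20a1, -1.22 on the log2 scale, was 0.60 with the block, 2.38 without both numbered 1 and -1.94 to 1.81 without 1 library. Col18a1, 0.28, was -0.45 to 0.81 without 1 library, with -0.06 without KLRG1-negative library 1. Col7a1, -1.83, was 0.099 without both numbered 2 and -2.39 to 0.15 without 1 library, and Col11a2, -1.63, was 0.34 without both numbered 2. Raw counts with no length correction gave fibrillar chains 78.0% (69.7% per length) and type VI chains 17.1% (24.4%) of collagen in KLRG1-negative libraries, and of 80 shares and levels by type no others moved by more than 1 SD. Depth limits the members with few counts in KLRG1-positive libraries, where Col1a1 rests on 57.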
